A study of Homo sapiens with 18 samples.

Results

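The 46 genes described here act in mitosis, and all 46 were present among the 26485 genes of the deposited count files. They were chosen by symbol, as cyclins and kinases of the G2/M transition, spindle and kinetochore genes and cytokinesis genes, by a rule that uses no measured value. Expression was measured by sequencing of poly(A) RNA in 3 human pancreatic ductal adenocarcinoma cell lines, BxPC3, Panc327 and SUIT2. Cells of each line received 100 nM THZ1 for 6 h, or DMSO, the vehicle, for 6 h. Each of the 6 groups held 3 libraries, 18 in all, and the labels name no transgene or deletion in any line. THZ1 binds CDK7 covalently and inhibits it. CDK7 is the TFIIH kinase that phosphorylates RNA polymerase II and also activates the cell cycle kinases, and THZ1 also binds CDK12 and CDK13. The labels do not say whether the 3 libraries of a group came from separate cultures, so the p-values measure the spread between these libraries, which may be technical.

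Entry into mitosis is driven by CDK1 bound to cyclin A or cyclin B, with Polo-like and Aurora kinases acting at the centrosome and the kinetochore. The spindle assembly checkpoint holds the anaphase-promoting complex inactive until every chromosome is attached, after which cyclin B and securin are degraded and the cell divides. Most of these genes are transcribed in late S and G2 phase, under the MuvB complex, B-MYB and the transcription factor FOXM1, so that their transcripts are abundant in dividing cultures and scarce in resting ones. A fall of such a transcript in bulk RNA can come from fewer cells in G2 and M phase or from less RNA per cell, which cannot be told apart here.

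Library totals ranged from 5626146 to 8631273 gene counts. The lowest count of a member in any library was 27, for CDC25C, and the highest was 9150, for MKI67. Levels are CPM, gene counts relative to a library total adjusted by TMM. TMM aligns the libraries on the bulk of their genes, so a log2 fold change is relative to that bulk. Multiply aligned records took 22.8% of the count file in BxPC3 with THZ1 and 12.8% with DMSO, 52.8% and 13.6% in Panc327, and 12.9% and 13.2% in SUIT2 (means, n = 3 each). Mean totals were lower with THZ1 than with DMSO in Panc327, at 6054640 ± 585213 and 8483820 ± 141566 counts, and in BxPC3, at 7078400 ± 313778 and 8037100 ± 363237 counts (SD, n = 3 each). They were 7566450 ± 780122 and 7642330 ± 476480 counts in SUIT2. The part of these shifts in the responses was not tested. Ductal keratins and EPCAM were present in every group, while KRT7 and CDH1 were low in SUIT2, at 14.8 and 28.7 CPM with THZ1 and 13.6 and 27.3 CPM with DMSO. The 6 ductal markers summed to 9747 to 10070 CPM with THZ1 and 6312 to 6434 CPM with DMSO in BxPC3, and to 6468 to 6889 and 4678 to 4792 CPM in Panc327. The islet markers INS and GCG and the fibroblast marker DCN were at 0 in all groups, and the leukocyte marker PTPRC had a mean of at most 0.0657 CPM. The 3 leukocyte markers summed to 34.5 to 38.7 CPM with THZ1 and 20.8 to 22.1 CPM with DMSO in BxPC3, and to 20.5 to 26.7 and 9.27 to 9.96 CPM in Panc327, nearly all of it CD68. The 5 fibroblast markers, nearly all of it COL1A1, summed to 14.8 to 19.8 CPM with THZ1 and 7.78 to 11.9 CPM with DMSO in BxPC3, and to 63.8 to 74.4 and 48.2 to 50.9 CPM in Panc327. The 3 endothelial markers summed to 6.58 to 7.42 and 4.07 to 4.99 CPM in BxPC3, and to 16.6 to 18.6 and 12.2 to 13.6 CPM in Panc327, with THZ1 and DMSO. In SUIT2 the ductal markers summed to 7349 to 8172 CPM with THZ1 and 7042 to 7415 CPM with DMSO. Its leukocyte markers, again nearly all CD68, summed to 41.0 to 45.5 and 42.0 to 48.6 CPM. SUIT2 fibroblast and endothelial markers summed to at most 1.01 and 4.06 CPM. The 3 acinar markers summed to at most 2.49 CPM in any library. The part of all these markers in the results was not tested.

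With THZ1 the mitotic genes went both ways in BxPC3, as all tested genes did. Most of them were lower in Panc327, and they moved little in SUIT2. A gene was called where the edgeR quasi-likelihood test gave an adjusted p under 0.05 over the 14011 genes tested, among which were all 46 members. In BxPC3, 19 members were higher with THZ1, where 35.2% of all tested genes were, and 22 were lower, where 34.1% were. In Panc327, 7 members were higher against a background of 35.6%, and 34 were lower against 37.8%. In SUIT2, 1 member was higher against 6.95% and 12 were lower against 7.64%. Their median log2 fold change was -0.08 in BxPC3, -0.73 in Panc327 and -0.03 in SUIT2, beside 0.00, -0.01 and 0.01 over all tested genes. A fall of at least 2-fold was called for 5 members in BxPC3 (NDC80, ASPM, NCAPH, CENPA and BUB1B), where the background was 15.1%, for 14 in Panc327, where it was 19%, and for none in SUIT2, where it was 0.45%. No member was called at least 2-fold higher in a line, where 5.73%, 7.69% and 0.143% of all tested genes were.

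The direction of the smaller changes depends on the scaling. With library size as the only scaling, the median of all genes stood at -0.35 in BxPC3, -0.34 in Panc327 and 0.00 in SUIT2. The share of higher calls among all calls was then 26.8% in place of 50.8% in BxPC3, 31% in place of 48.5% in Panc327, and 39.3% in place of 47.7% in SUIT2. Of the members, 5 were then higher and 31 lower in BxPC3, beside 18.6% and 50.7% of all tested genes. In Panc327, 1 was higher and 42 lower, beside 22.6% and 50.3%, and in SUIT2, 1 was higher and 14 lower, beside 5.42% and 8.38%.

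**Figure D1:**
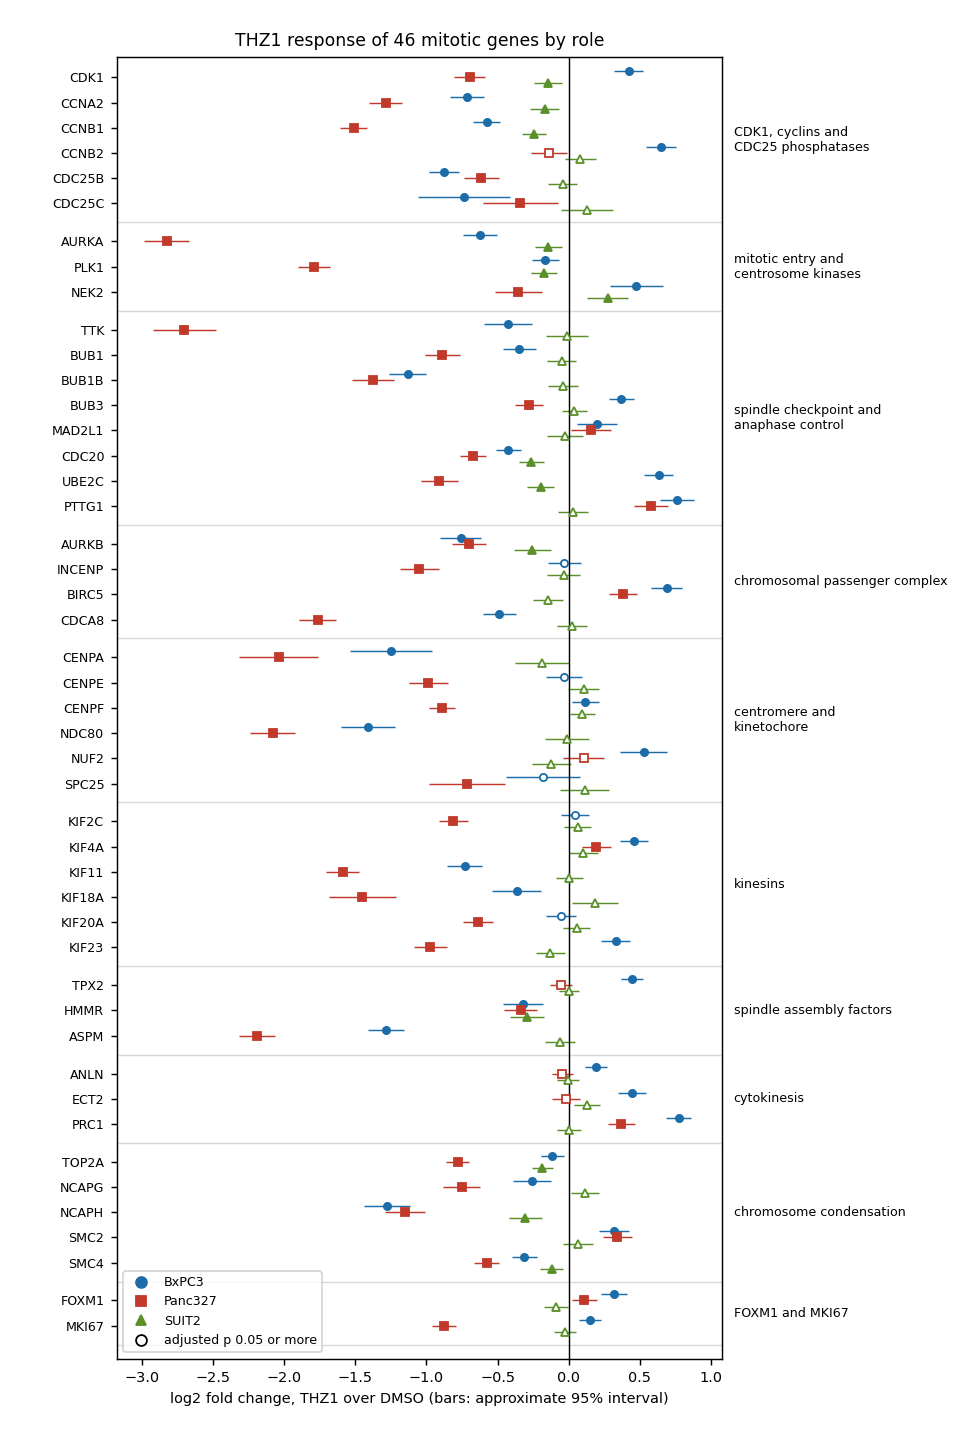
Log2 fold change of each of the 46 mitotic genes with THZ1 over DMSO (horizontal axis), grouped by role (vertical axis), in BxPC3 (circles), Panc327 (squares) and SUIT2 (triangles). Bars are approximate 95% intervals and open symbols did not pass the test. Panc327 reaches -2.82 for AURKA, BxPC3 lies on both sides of 0, and SUIT2 stays between -0.30 and 0.27, with values relative to the TMM scaling (with library size only, 9 BxPC3 members and 4 Panc327 members change sign).

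Read as a distribution, the Panc327 members lay below the bulk of the genes, while the BxPC3 members spread on both sides of it, from -1.41 to 0.77. Among genes with a DMSO mean of at least 10 CPM, 73.9% of the 46 members were called lower in Panc327, against 44.2% of all such genes. In BxPC3 the shares were 46.7% of 45 members and 39% of all such genes. Called higher there were 42.2% of these members and 44.6% of all such genes, so the BxPC3 members were near the background. In SUIT2, 26.1% of the 46 members were called lower, against 9.5% of all such genes. Called higher in SUIT2 were 2.17% of the members and 9.44% of all such genes.

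**Figure D2:**
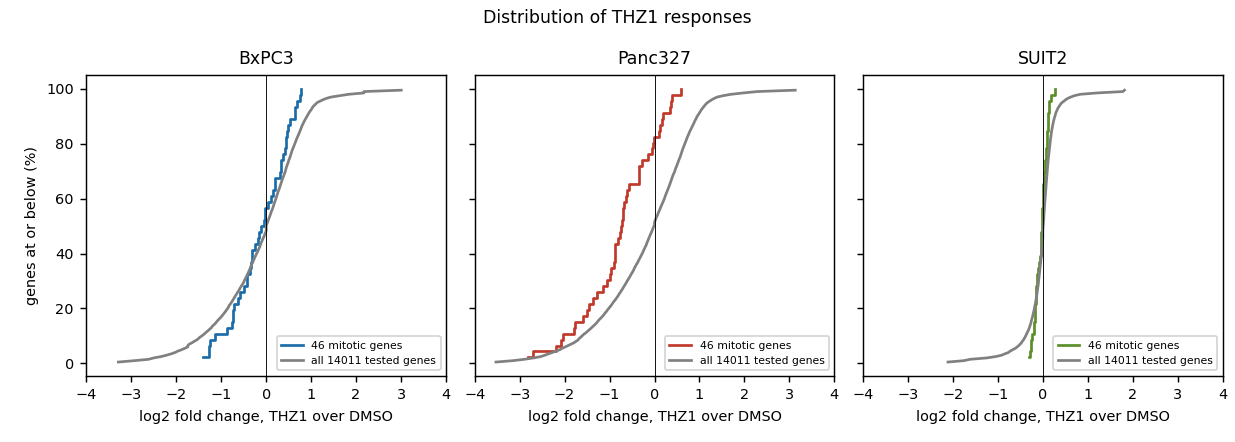
Cumulative distribution of log2 fold changes, THZ1 over DMSO (horizontal axis), for the 46 mitotic genes (stepped coloured line) and all 14011 tested genes (grey line), as a percentage of genes at or below each value (vertical axis), in BxPC3, Panc327 and SUIT2. The Panc327 member line lies left of the grey line, with a median of -0.73 beside -0.01.

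Promoter sequences of RefSeq (GRCh38.p14; 250 bases before to 50 after each start) were matched by symbol for 39 of the 46 members, in 51 windows, since some genes have several starts. Members with no entry were BIRC5, AURKA, TPX2, UBE2C, FOXM1, BUB3 and TTK. Known promoters of G2/M genes carry CCAAT boxes, bound by NF-Y, and the cell cycle homology region TTTGAA, bound by MuvB complexes. Counted on both strands, CCAAT occurred in 68.6% of member windows and 34.6% of all 35116 windows, and TTTGAA in 60.8% and 15.2%. Both motifs stood together in 45.1% of member windows and 5.9% of all windows. The SP1-like GGCGGG occurred in 82.4% and 45% of windows, the variant TTCGAA in 5.88% and 1.45%, and the TATA motif TATAAA in 3.92% and 11.5%. In Panc327 the median log2 fold change was -0.75 for 30 members with CCAAT and -0.75 for 9 without, and -0.73 for 28 with TTTGAA and -0.81 for 11 without. In BxPC3 it was -0.17 with CCAAT and -0.04 without, and -0.14 with TTTGAA and -0.35 without. Of the members with TTTGAA, 20 of 28 were called lower in Panc327 and 14 of 28 in BxPC3, and of those without it, 10 of 11 and 6 of 11. These are descriptions of small groups and were not tested.

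The 7 windows printed here run from 250 bases before the start to 30 after it, on the strand of the gene, and show members whose responses are described at length: a pair that drives entry into mitosis (CCNB1 and PLK1), a pair with large falls in BxPC3 and Panc327 (ASPM and NDC80), a gene higher in BxPC3 and lower in Panc327 (CDK1) and a pair higher in both lines (PRC1 and PTTG1). Capitals mark CCAAT and TTTGAA, or their reverse complements ATTGG and TTCAAA.
CCNB1: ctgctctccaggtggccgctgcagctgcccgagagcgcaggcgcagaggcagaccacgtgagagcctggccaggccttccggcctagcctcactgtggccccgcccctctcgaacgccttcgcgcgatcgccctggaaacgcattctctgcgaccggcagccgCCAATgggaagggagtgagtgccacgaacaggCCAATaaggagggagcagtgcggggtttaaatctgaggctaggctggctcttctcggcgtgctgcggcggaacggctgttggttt
PLK1: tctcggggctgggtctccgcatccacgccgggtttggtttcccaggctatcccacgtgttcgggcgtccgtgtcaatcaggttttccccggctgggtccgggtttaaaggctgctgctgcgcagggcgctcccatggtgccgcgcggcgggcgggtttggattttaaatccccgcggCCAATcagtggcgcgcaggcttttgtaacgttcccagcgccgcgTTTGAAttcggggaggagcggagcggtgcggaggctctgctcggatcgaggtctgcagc
ASPM: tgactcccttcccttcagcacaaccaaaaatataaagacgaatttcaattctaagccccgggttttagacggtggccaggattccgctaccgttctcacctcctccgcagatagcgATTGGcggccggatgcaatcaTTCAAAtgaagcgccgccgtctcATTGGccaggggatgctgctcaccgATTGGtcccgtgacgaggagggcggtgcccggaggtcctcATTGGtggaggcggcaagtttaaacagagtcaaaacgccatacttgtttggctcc
NDC80: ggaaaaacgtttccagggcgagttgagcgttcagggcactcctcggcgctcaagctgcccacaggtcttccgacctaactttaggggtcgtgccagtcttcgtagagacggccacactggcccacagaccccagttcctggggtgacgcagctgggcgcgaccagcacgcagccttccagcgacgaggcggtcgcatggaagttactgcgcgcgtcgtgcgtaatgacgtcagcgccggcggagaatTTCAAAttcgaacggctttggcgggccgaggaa
CDK1: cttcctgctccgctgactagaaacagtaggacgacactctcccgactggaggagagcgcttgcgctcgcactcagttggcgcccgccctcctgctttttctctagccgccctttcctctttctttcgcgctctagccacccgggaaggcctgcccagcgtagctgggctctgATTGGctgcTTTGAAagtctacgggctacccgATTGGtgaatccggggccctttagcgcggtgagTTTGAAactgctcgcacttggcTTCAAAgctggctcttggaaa
PRC1: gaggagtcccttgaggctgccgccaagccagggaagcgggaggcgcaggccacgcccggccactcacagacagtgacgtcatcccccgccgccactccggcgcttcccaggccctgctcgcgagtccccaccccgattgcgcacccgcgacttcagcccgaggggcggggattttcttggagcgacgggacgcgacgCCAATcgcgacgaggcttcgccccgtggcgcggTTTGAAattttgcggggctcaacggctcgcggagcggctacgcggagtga
PTTG1: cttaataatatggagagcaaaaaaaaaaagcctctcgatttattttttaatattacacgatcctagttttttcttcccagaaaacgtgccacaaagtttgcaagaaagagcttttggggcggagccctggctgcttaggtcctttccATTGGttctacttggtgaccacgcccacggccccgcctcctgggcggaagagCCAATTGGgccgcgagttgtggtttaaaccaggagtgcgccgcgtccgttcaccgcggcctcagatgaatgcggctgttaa
The windows lie at chr5:69166900-69167179, plus strand (CCNB1), chr16:23678639-23678918, plus strand (PLK1), chr1:197146640-197146919, minus strand (ASPM), chr18:2571307-2571586, plus strand (NDC80), chr10:60778228-60778507, plus strand (CDK1, 1 of its 2 windows), chr15:90994506-90994785, minus strand (PRC1) and chr5:160421605-160421884, plus strand (PTTG1, 1 of its 2 windows). The CCNB1 window holds 2 CCAAT boxes, at -87 and -55 from the start, and no TTTGAA. PLK1 has CCAAT at -73 and TTTGAA at -29, and PRC1 has the same pair at -53 and -20. By the TMM scaling PLK1 fell and PRC1 rose in both BxPC3 and Panc327. With library size only PRC1 in Panc327 was at 0.04 and not called. The part of the motifs in these responses was not tested. The ASPM window holds 4 CCAAT boxes, all on the reverse strand, and 1 TTTGAA. In PTTG1, 2 of the 3 CCAAT boxes overlap in the run CCAATTGG, at -51 and -48. NDC80 had TTTGAA at -3 and no CCAAT in this window.

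CDK1, the cyclins and the CDC25 phosphatases parted in BxPC3 and fell in Panc327. Of 6 members, 2 were higher and 4 lower in BxPC3, 5 were lower in Panc327, and 3 were lower in SUIT2. The shares of all tested genes were 35.2% higher and 34.1% lower in BxPC3, 35.6% and 37.8% in Panc327, and 6.95% and 7.64% in SUIT2. Counts in each role group stand beside these shares. CDK1 (chr10:60778331-60794852 on GRCh38), the catalytic subunit that drives mitosis, had 165, 158 and 146 CPM in the BxPC3 THZ1 libraries, against 119.8, 119 and 112 CPM in the BxPC3 DMSO libraries. The same gene had 101, 100.4 and 94.6 CPM in the Panc327 THZ1 libraries, against 158, 166 and 154 CPM in the Panc327 DMSO libraries. The SUIT2 levels were 132, 139.6 and 137 CPM in the THZ1 libraries, against 153, 147 and 152 CPM in the DMSO libraries. The THZ1 and DMSO libraries did not overlap in any line, with THZ1 above DMSO in BxPC3 and below it in the other lines. Its log2 fold change was 0.42 ± 0.05 (SE) in BxPC3, -0.70 ± 0.06 in Panc327 and -0.14 ± 0.05 in SUIT2, with edgeR adjusted p = 1.65e-11, 1.27e-20 and 0.0374. With library size as the only scaling the BxPC3 value was 0.03 and not called, and the SUIT2 call was lost without DMSO library 1 or 3 or THZ1 library 1 or 3 (-0.12 to -0.15).

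CCNB1 (chr5:69167010-69178245), the cyclin B1 that partners CDK1 at mitotic entry, had 158, 163 and 156 CPM in the BxPC3 THZ1 libraries, against 238, 228 and 246 CPM in the BxPC3 DMSO libraries. This gene had 128, 131 and 127 CPM in the Panc327 THZ1 libraries, against 361, 364 and 376 CPM in the Panc327 DMSO libraries. The SUIT2 values were 268, 257 and 245 CPM in the THZ1 libraries, against 311, 285 and 317 CPM in the DMSO libraries. All 3 THZ1 libraries lay below all 3 DMSO libraries in each line, and the gap was widest in Panc327, where the THZ1 mean was 0.351 times the DMSO mean. The log2 fold changes were -0.58 ± 0.05, -1.51 ± 0.05 and -0.25 ± 0.04 (SE) in BxPC3, Panc327 and SUIT2 (edgeR adjusted p = 1.41e-19, 5.04e-47 and 1.25e-05). CCNA2, the cyclin of S and G2 phase, fell alongside, at -0.72 ± 0.06, -1.29 ± 0.06 and -0.17 ± 0.05, the SUIT2 call being lost without DMSO library 1 (-0.15) or THZ1 library 1 (-0.16). CCNB2, the second B-type cyclin, went the other way in BxPC3, at 0.65 ± 0.05, edgeR adjusted p = 3.42e-19, and stood at -0.14, interval -0.26 to -0.01, in Panc327, where the call was not made (edgeR adjusted p = 0.0519) but was with limma voom, with no filter, with library size only or without THZ1 library 2. CDC25B, a phosphatase that activates CDK1, fell in BxPC3 (-0.87 ± 0.05) and Panc327 (-0.61 ± 0.06). CDC25C, a related phosphatase with few counts, was called lower in Panc327 (-0.34 ± 0.14), a call lost with RLE size factors, with DESeq2 (-0.22 in both) and without THZ1 library 2 (-0.29). On the opposite strand, EXOSC9 overlaps 9.08% of the exon length of CCNA2 and FAM53C 8.78% of that of CDC25C, so reads there cannot be told apart.

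Among the kinases of mitotic entry and the centrosome, AURKA and PLK1 fell in all lines and most in Panc327. AURKA (chr20:56369389-56392337), Aurora A, which matures the centrosome and activates PLK1, had 16.8, 16.1 and 19.3 CPM in the Panc327 THZ1 libraries, against 125, 125 and 119 CPM in the Panc327 DMSO libraries. In BxPC3 it had 75.2, 69.1 and 71.7 CPM in the THZ1 libraries, against 102, 112 and 118 CPM in the DMSO libraries. SUIT2 held 195, 189 and 197 CPM in the THZ1 libraries, against 222, 209 and 213 CPM in the DMSO libraries. The Panc327 THZ1 libraries were the lowest of all 18, and the groups did not overlap in any line. The log2 fold change of AURKA was -2.82 ± 0.08 (SE) in Panc327, the largest fall of the 46 there, -0.62 ± 0.06 in BxPC3 and -0.14 ± 0.05 in SUIT2 (edgeR adjusted p = 1.50e-50, 3.79e-16 and 0.0282). The SUIT2 call was lost without DMSO library 1 (-0.12) or 3 (-0.15) or THZ1 library 2 (-0.13).

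PLK1 (chr16:23677656-23690367), Polo-like kinase 1, which triggers entry and acts again in anaphase and cytokinesis, had 59.6, 63.7 and 63.6 CPM in the Panc327 THZ1 libraries, against 215, 214 and 217 CPM in the Panc327 DMSO libraries. Its levels were 164, 172 and 170.2 CPM in the BxPC3 THZ1 libraries, against 179, 190.3 and 198 CPM in the BxPC3 DMSO libraries. For SUIT2 the values were 190.5, 179 and 187 CPM in the THZ1 libraries, against 196, 220.1 and 213 CPM in the DMSO libraries. The Panc327 groups stood far apart, while in BxPC3 and SUIT2 the gap between the nearest libraries was small. Its log2 fold changes were -1.79 ± 0.06, -0.16 ± 0.05 and -0.17 ± 0.05 (SE) in Panc327, BxPC3 and SUIT2 (edgeR adjusted p = 9.83e-47, 0.00211 and 0.00531), and the SUIT2 call was lost without DMSO library 2 (-0.14). NEK2, a kinase that splits the duplicated centrosomes, had 48.2, 57.5 and 52.2 CPM in the SUIT2 THZ1 libraries, against 45.9, 41.6 and 42.7 CPM in the SUIT2 DMSO libraries, and was the single member called higher in SUIT2 (0.27 ± 0.07, edgeR adjusted p = 0.00629). That call was lost without THZ1 library 2 (0.21). NEK2 was also higher in BxPC3 (0.48 ± 0.09, 0.08 and not called with library size only) and lower in Panc327 (-0.35 ± 0.08).

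Of the 8 spindle checkpoint and anaphase genes, 4 were higher and 4 lower in BxPC3, beside 35.2% and 34.1% of all tested genes. Panc327 held 2 higher and 6 lower, beside 35.6% and 37.8%. In SUIT2, 2 were lower and 6 did not pass the test. TTK (chr6:80003887-80042527), the MPS1 kinase that starts checkpoint signalling at unattached kinetochores, had 7.63, 9.3 and 13.0 CPM in the Panc327 THZ1 libraries, against 57.3, 67.6 and 68.6 CPM in the Panc327 DMSO libraries. The gene stood at 40.9, 37.3 and 34.0 CPM in the BxPC3 THZ1 libraries, against 50.8, 51.2 and 48.7 CPM in the BxPC3 DMSO libraries. In SUIT2 the gene had 47.6, 54.7 and 47.4 CPM in the THZ1 libraries, against 51.8, 46.5 and 52.2 CPM in the DMSO libraries, and there the groups overlapped. Its log2 fold change was -2.70 ± 0.11 (SE) in Panc327 and -0.43 ± 0.09 in BxPC3 (edgeR adjusted p = 1.88e-36 and 7.27e-06), and in SUIT2 it was -0.01, interval -0.16 to 0.13. BUB1B, the checkpoint protein BUBR1, fell in both BxPC3 (-1.13 ± 0.07) and Panc327 (-1.37 ± 0.07), and in SUIT2 stood at -0.04, interval -0.15 to 0.06.

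BUB3 (chr10:123154277-123170467), which carries BUB1 and BUBR1 to the kinetochore, had 314, 294 and 297 CPM in the BxPC3 THZ1 libraries, against 234, 233 and 233 CPM in the BxPC3 DMSO libraries. It had 163, 157 and 158 CPM in the Panc327 THZ1 libraries, against 193, 199 and 189 CPM in the Panc327 DMSO libraries. In SUIT2 it had 188, 212 and 189 CPM in the THZ1 libraries, against 195, 186 and 191 CPM in the DMSO libraries, with overlapping groups. The gene was thus above DMSO in every BxPC3 THZ1 library and below it in every Panc327 THZ1 library. Its log2 fold changes were 0.37 ± 0.04, -0.28 ± 0.05 and 0.04 ± 0.05 (SE) in BxPC3, Panc327 and SUIT2 (edgeR adjusted p = 4.56e-12, 3.84e-07 and 0.628), and with library size only the BxPC3 value was -0.03.

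CDC20, the activator of the anaphase-promoting complex that the checkpoint inhibits, had 254, 222 and 233 CPM in the SUIT2 THZ1 libraries, against 276, 297 and 278 CPM in the SUIT2 DMSO libraries. It was lower in all lines, at -0.26 ± 0.05 in SUIT2, -0.42 ± 0.05 in BxPC3 and -0.67 ± 0.05 in Panc327 (edgeR adjusted p = 1.05e-05, 6.23e-14 and 7.30e-23). PTTG1 (chr5:160421822-160428744), securin, the inhibitor of the protease that cuts cohesin, moved the other way. PTTG1 had 102, 103 and 110.4 CPM in the BxPC3 THZ1 libraries, against 64.0, 57.3 and 65.0 CPM in the BxPC3 DMSO libraries. This gene had 112, 107 and 114 CPM in the Panc327 THZ1 libraries, against 73.7, 76.6 and 72.8 CPM in the Panc327 DMSO libraries. In both lines the groups were well apart, with log2 fold changes of 0.76 ± 0.06 and 0.58 ± 0.06 (SE; edgeR adjusted p = 3.52e-20 and 5.82e-15), while SUIT2 stood at 0.03, interval -0.08 to 0.13. The near-identical copies PTTG2 and PTTG3P had 0 counts in all libraries, so reads that fit several copies may be missing from PTTG1 and its level is uncertain. Processed pseudogenes of AURKA, NEK2, BUB1, BUB3, CDC20, UBE2C and other members are not among the counted genes, so shared reads may be missing there as well. UBE2C, the ubiquitin-conjugating enzyme of the anaphase-promoting complex, was higher in BxPC3 (0.63 ± 0.05) and lower in Panc327 (-0.91 ± 0.07) and SUIT2 (-0.20 ± 0.05). It kept these directions with library size only, where the BxPC3 value was 0.24. MAD2L1, the MAD2 checkpoint protein, was called higher in BxPC3 (0.20 ± 0.07) and Panc327 (0.16 ± 0.07), but with library size only it was lower in both (-0.20 and -0.17). The Panc327 call was lost with no filter (0.10) and without DMSO library 3 (0.07) or THZ1 library 1, 2 or 3 (0.14 to 0.17), and the BxPC3 call without THZ1 library 3 (0.16).

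The chromosomal passenger complex, which corrects faulty attachments and later guides cytokinesis, did not move as a unit. Of its 4 genes, BIRC5 was higher and AURKB and CDCA8 lower in BxPC3. In Panc327, BIRC5 was again higher and the other 3 were lower. BIRC5 (chr17:78214186-78225636), survivin, had 143, 154 and 150.2 CPM in the BxPC3 THZ1 libraries, against 92.5, 88.5 and 96.1 CPM in the BxPC3 DMSO libraries. Its levels were 258, 242 and 223 CPM in the Panc327 THZ1 libraries, against 194, 175 and 187 CPM in the Panc327 DMSO libraries. The THZ1 libraries lay above the DMSO libraries in both lines, with log2 fold changes of 0.69 ± 0.06 and 0.38 ± 0.05 (SE; edgeR adjusted p = 8.89e-20 and 8.22e-11). In Panc327 the value with library size only was 0.05 and not called. In SUIT2, BIRC5 stood at -0.14, interval -0.25 to -0.04 (edgeR adjusted p = 0.0571), and was called lower with RLE size factors (-0.15), with library size only (-0.16) or without DMSO library 1 (-0.18). AURKB, the kinase of the complex, was lower in all lines, at -0.76 ± 0.07, -0.70 ± 0.06 and -0.26 ± 0.07 in BxPC3, Panc327 and SUIT2. CDCA8, borealin, which helps to place the complex at the centromere, fell by 1.77 on the log2 scale in Panc327 and by 0.49 in BxPC3. INCENP, the scaffold, was at -0.03, interval -0.15 to 0.09, in BxPC3 and at -1.05 ± 0.07 in Panc327.

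At the centromere and kinetochore, 5 of 6 genes were lower in Panc327, beside 37.8% of all tested genes. BxPC3 held 2 higher, 2 lower and 2 that did not pass, where 35.2% of all tested genes were higher and 34.1% lower. None of the 6 passed in SUIT2, where their values ran from -0.19 to 0.11. CENPA (chr2:26764289-26801067), the histone H3 variant that marks centromeres, had 7.82, 6.01 and 8.63 CPM in the BxPC3 THZ1 libraries, against 17.4, 19.0 and 17.2 CPM in the BxPC3 DMSO libraries. The gene stood at 7.63, 7.03 and 5.91 CPM in the Panc327 THZ1 libraries, against 26.0, 25.7 and 33.3 CPM in the Panc327 DMSO libraries. The SUIT2 levels were 26.5, 27.2 and 21.5 CPM in the THZ1 libraries, against 28.9, 29.4 and 27.3 CPM in the DMSO libraries, where THZ1 again lay below DMSO but the test was not passed (-0.19, interval -0.37 to 0.00). The log2 fold changes were -1.25 ± 0.15 (SE) in BxPC3 and -2.04 ± 0.14 in Panc327 (edgeR adjusted p = 2.14e-12 and 7.16e-24). SLC35F6 overlaps 6.96% of its exon length on the same strand. NDC80 (chr18:2571511-2616635), the subunit that binds microtubules at the kinetochore, had 16.2, 19.6 and 13.9 CPM in the BxPC3 THZ1 libraries, against 45.5, 40.2 and 46.1 CPM in the BxPC3 DMSO libraries. It had 26.0, 24.0 and 21.7 CPM in the Panc327 THZ1 libraries, against 99.9, 105 and 99.9 CPM in the Panc327 DMSO libraries. These were clear falls in both lines, at -1.41 ± 0.10 and -2.08 ± 0.08 (SE; edgeR adjusted p = 4.47e-24 and 5.29e-41), and the BxPC3 fall was the largest of the 46 there. NUF2, its partner in the same complex, did not fall with it: it was higher in BxPC3 (0.53 ± 0.08, 0.13 and not called with library size only). In Panc327, NUF2 stood at 0.11, interval -0.04 to 0.25, was called higher with RLE size factors or DESeq2 (0.22 in both) and lower with library size only (-0.22). CENPF, a large kinetochore protein of G2 cells, was called higher in BxPC3 at 0.12 ± 0.05, a call lost with limma voom, with no filter, in a fit of BxPC3 alone and without DMSO library 1 (0.11) or 2 (0.10) or THZ1 library 1 (0.09) or 2 (0.11), and turned to -0.28 with library size only.

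The kinesins fell in Panc327, where 5 of 6 were lower, beside 37.8% of all tested genes, and KIF4A was higher. BxPC3 held 2 higher, 2 lower and 2 that did not pass, beside 35.2% higher and 34.1% lower over all tested genes. None of the 6 passed in SUIT2. KIF20A (chr5:138178719-138187715), the motor MKLP2 that carries the passenger complex to the midzone, had 109, 109 and 98.7 CPM in the Panc327 THZ1 libraries, against 168, 160.2 and 164 CPM in the Panc327 DMSO libraries. This gene had 119.8, 123 and 122 CPM in the BxPC3 THZ1 libraries, against 126, 123 and 129.7 CPM in the BxPC3 DMSO libraries, which overlapped. SUIT2 held 177, 165 and 164 CPM in the THZ1 libraries, against 159, 159 and 169 CPM in the DMSO libraries, which overlapped too. The log2 fold change was -0.63 ± 0.05 (SE) in Panc327 (edgeR adjusted p = 4.38e-19), and the intervals in BxPC3 (-0.16 to 0.05) and SUIT2 (-0.04 to 0.15) held 0. KIF11, the motor Eg5 that pushes the spindle poles apart, fell in both BxPC3 (-0.73 ± 0.06) and Panc327 (-1.59 ± 0.06). KIF23, the motor of centralspindlin, was higher in BxPC3 (0.33 ± 0.05, -0.07 with library size only) and lower in Panc327 (-0.97 ± 0.06). KIF4A was called higher in BxPC3 (0.46 ± 0.05, 0.06 and not called with library size only) and Panc327 (0.19 ± 0.05, -0.13 with library size only). Its close relative KIF4B had 37 counts over all libraries, and reads shared with it make the KIF4A level uncertain.

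Among spindle assembly factors, ASPM fell steeply in 2 lines. ASPM (chr1:197084128-197146694), which focuses microtubules at the spindle poles, had 47.3, 50.01 and 53.2 CPM in the Panc327 THZ1 libraries, against 217, 226 and 242 CPM in the Panc327 DMSO libraries. Its levels were 53.7, 58.8 and 52.8 CPM in the BxPC3 THZ1 libraries, against 127, 131 and 144 CPM in the BxPC3 DMSO libraries. The groups were far apart in both, with log2 fold changes of -2.19 ± 0.06 and -1.28 ± 0.07 (SE; edgeR adjusted p = 9.34e-48 and 2.06e-31), while SUIT2 stood at -0.06, interval -0.17 to 0.04. HMMR, a spindle protein also known as a hyaluronan receptor, had 71.1, 81.0 and 80.0 CPM in the SUIT2 THZ1 libraries, against 98.8, 91.4 and 93.5 CPM in the SUIT2 DMSO libraries. It was lower in all 3 lines, at -0.29 ± 0.06 in SUIT2, -0.32 ± 0.07 in BxPC3 and -0.34 ± 0.06 in Panc327 (edgeR adjusted p = 3.31e-04, 4.48e-05 and 2.91e-07), and none of the 3 differences between lines passed. TPX2, which activates Aurora A on the spindle, was higher in BxPC3 (0.45 ± 0.04, 0.05 and not called with library size only) and stood at -0.05, interval -0.13 to 0.02, in Panc327, where it was called lower with no filter (-0.11) and with library size only (-0.38).

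The 3 cytokinesis genes were all higher in BxPC3, where 35.2% of all tested genes were, and none fell in a line by the TMM-scaled test. PRC1 (chr15:90966038-90995629), which bundles the antiparallel microtubules of the midzone, had 345, 339.6 and 342 CPM in the BxPC3 THZ1 libraries, against 201, 192 and 208 CPM in the BxPC3 DMSO libraries. The gene stood at 189, 175 and 183 CPM in the Panc327 THZ1 libraries, against 143, 141 and 141 CPM in the Panc327 DMSO libraries. The groups did not overlap in either line, with log2 fold changes of 0.77 ± 0.04, the largest rise of the 46 in BxPC3, and 0.37 ± 0.05 (SE; edgeR adjusted p = 2.53e-29 and 9.46e-11). With library size only the Panc327 value was 0.04 and not called. In SUIT2, PRC1 stood at 0.00, interval -0.09 to 0.09. The antisense transcript PRC1-AS1 overlaps 7.35% of the exon length of PRC1, and without strand its reads cannot be told apart from those of PRC1. ECT2, the exchange factor that activates RhoA for furrow ingression, was higher in BxPC3 (0.45 ± 0.05, 0.05 and not called with library size only) and at -0.02, interval -0.12 to 0.08, in Panc327. ANLN, anillin, the scaffold of the contractile ring, was higher in BxPC3 (0.19 ± 0.04), but lower there with library size only (-0.20). In Panc327 it stood at -0.04, interval -0.12 to 0.03, was called lower with no filter (-0.10) and with library size only (-0.37), and higher with DESeq2 (0.07).

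Chromosome condensation genes fell except for SMC2. Of 5 members, 4 were lower and 1 higher in both BxPC3 and Panc327, and 3 were lower in SUIT2. Over all tested genes, 34.1%, 37.8% and 7.64% were lower in BxPC3, Panc327 and SUIT2. TOP2A (chr17:40388516-40417950), topoisomerase II alpha, which untangles sister chromatids, had 409.7, 424 and 414 CPM in the BxPC3 THZ1 libraries, against 446, 453 and 451 CPM in the BxPC3 DMSO libraries. It had 273, 292 and 275 CPM in the Panc327 THZ1 libraries, against 461, 489 and 493 CPM in the Panc327 DMSO libraries. For SUIT2 the values were 672, 729.8 and 701 CPM in the THZ1 libraries, against 815, 755 and 819 CPM in the DMSO libraries. THZ1 lay below DMSO in every line, with log2 fold changes of -0.11 ± 0.04, -0.78 ± 0.04 and -0.19 ± 0.04 (SE; edgeR adjusted p = 0.00896, 5.92e-31 and 1.97e-04). The BxPC3 call was lost with RLE size factors and with DESeq2 (-0.07 in both).

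NCAPH (chr2:96335787-96373845), a subunit of condensin I, had 23.8, 25.4 and 23.2 CPM in the BxPC3 THZ1 libraries, against 59.5, 60.0 and 56.3 CPM in the BxPC3 DMSO libraries. This gene had 43.2, 36.4 and 35.5 CPM in the Panc327 THZ1 libraries, against 85.2, 84.9 and 86.8 CPM in the Panc327 DMSO libraries. In SUIT2 the gene had 70.5, 66.9 and 71.3 CPM in the THZ1 libraries, against 83.8, 84.5 and 89.5 CPM in the DMSO libraries, and its fall there was the largest of the 46. The log2 fold changes were -1.28 ± 0.08, -1.15 ± 0.07 and -0.30 ± 0.06 (SE; edgeR adjusted p = 7.97e-26, 9.45e-27 and 1.00e-04). SMC2 and SMC4, the paired ATPases at the core of both condensins, parted: SMC2 was higher in BxPC3 (0.32 ± 0.05) and Panc327 (0.34 ± 0.05), although with library size only it was at -0.08 and 0.02 and not called, and SMC4 was lower (-0.31 ± 0.04 and -0.58 ± 0.04). Exons of TRIM59 and IFT80 overlap 18.5% and 7.18% of the SMC4 exon length on the opposite strand, so that reads of these genes cannot be told apart from SMC4 there. In SUIT2, SMC4 was called lower (-0.12 ± 0.04, edgeR adjusted p = 0.0378), a call lost without DMSO library 1 (-0.09) or 3 (-0.12) or THZ1 library 1 (-0.09). LCORL overlaps 33.1% of the exon length of NCAPG, another condensin I subunit, in the same way, and NCAPG was lower in BxPC3 (-0.26 ± 0.07) and Panc327 (-0.75 ± 0.07).

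FOXM1 (chr12:2857681-2877155), the transcription factor that acts on many G2/M promoters, did not fall in Panc327 by the TMM scaling, though it did with library size only. Its levels were 231, 240.1 and 237 CPM in the BxPC3 THZ1 libraries, against 190.4, 188 and 189 CPM in the BxPC3 DMSO libraries. The gene stood at 302, 302 and 260.3 CPM in the Panc327 THZ1 libraries, against 267, 263 and 272 CPM in the Panc327 DMSO libraries, and there the groups overlapped. In SUIT2 it had 289.8, 276 and 268 CPM in the THZ1 libraries, against 290.5, 303 and 293 CPM in the DMSO libraries. Its log2 fold changes were 0.32 ± 0.05 in BxPC3, 0.11 ± 0.04 in Panc327 and -0.09 ± 0.04 in SUIT2 (SE; edgeR adjusted p = 3.38e-09, 0.0224 and 0.175). With library size only they were -0.08 in BxPC3 and -0.22 in Panc327, and the Panc327 call was lost with no filter and without DMSO library 1 (0.10) or 2 (0.09) or THZ1 library 1 or 2 (0.07 each). ITFG2 overlaps 15.9% of its exon length on the opposite strand.

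MKI67 (chr10:128096659-128126385), the Ki-67 proliferation marker that coats mitotic chromosomes, had 798, 777 and 778 CPM in the BxPC3 THZ1 libraries, against 666, 725 and 729.6 CPM in the BxPC3 DMSO libraries. It had 503, 506 and 527 CPM in the Panc327 THZ1 libraries, against 901, 979.8 and 939.9 CPM in the Panc327 DMSO libraries. The SUIT2 levels were 910.4, 938 and 902 CPM in the THZ1 libraries, against 1017, 863 and 917 CPM in the DMSO libraries, which overlapped. The log2 fold change was 0.15 ± 0.04 in BxPC3 and -0.88 ± 0.04 in Panc327 (SE; edgeR adjusted p = 8.26e-04 and 1.98e-31), but with library size only it was below DMSO in BxPC3 too, at -0.25. In SUIT2 it stood at -0.02, interval -0.10 to 0.05.

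**Figure D3:**
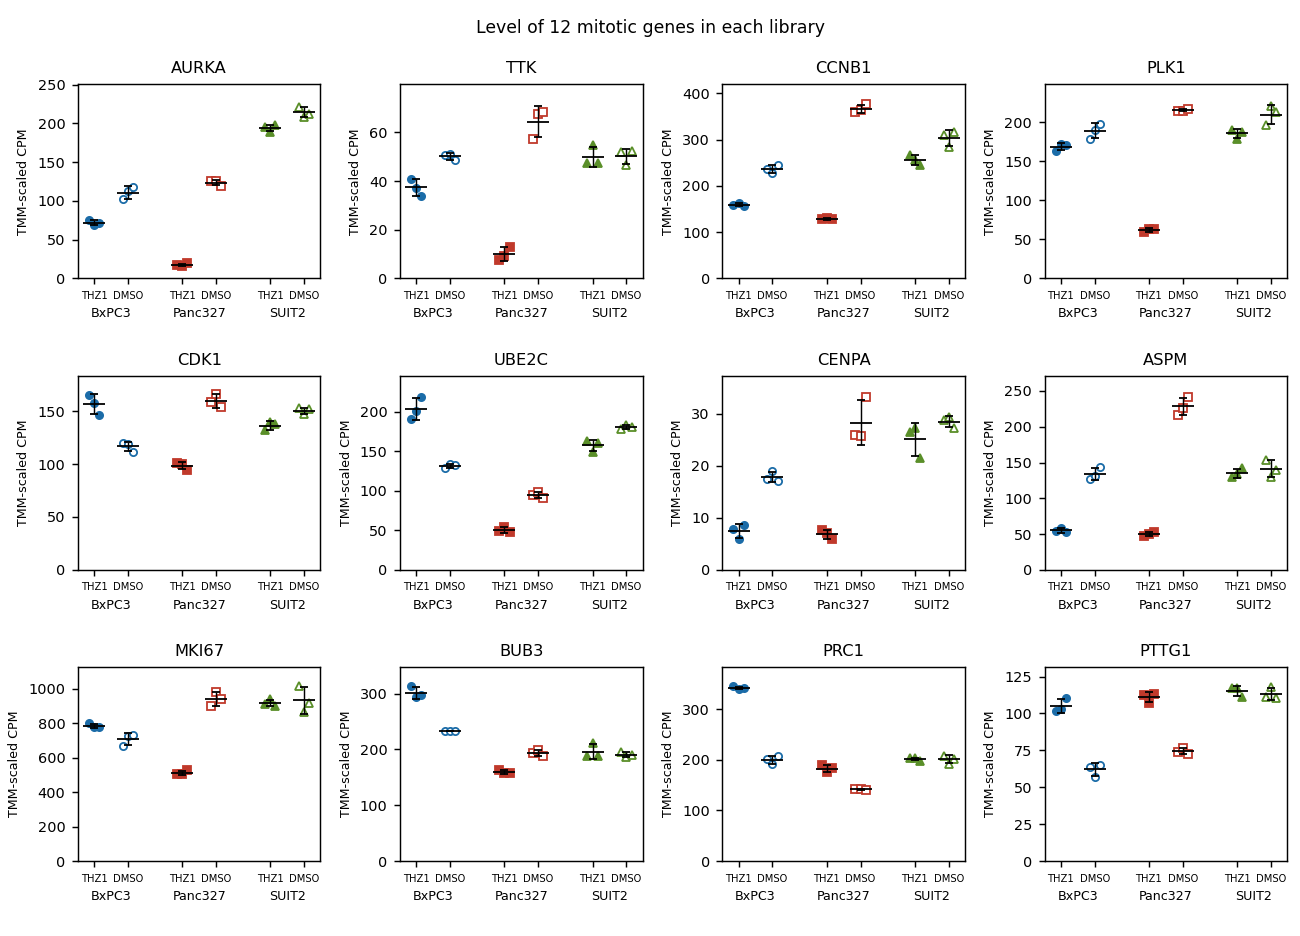
TMM-scaled CPM (vertical axes, from 0) of 12 mitotic genes in each library, with THZ1 (filled) left of DMSO (open) for BxPC3, Panc327 and SUIT2. Horizontal lines are means and bars SD (n = 3). The 3 Panc327 THZ1 libraries hold 16.1 to 19.3 CPM of AURKA and 7.63 to 13.0 CPM of TTK, below every other library, while PRC1 and PTTG1 are higher with THZ1 in BxPC3 and Panc327.

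Put together by gene, 10 members were lower in all 3 lines, where 4.32% of all tested genes were: CCNA2, CCNB1, AURKA, PLK1, CDC20, AURKB, HMMR, TOP2A, NCAPH and SMC4. No member was higher in all 3, where 3.62% of all tested genes were. In BxPC3 and Panc327 together, 22 members were lower in both, beside 26.3% of all genes, and 7 were higher in both, beside 26.1%. The 7 were MAD2L1, PTTG1, BIRC5, KIF4A, PRC1, SMC2 and FOXM1, of which PTTG1 alone was still higher in both with library size only. A further 7 were higher in BxPC3 and lower in Panc327, namely CDK1, NEK2, BUB3, UBE2C, CENPF, KIF23 and MKI67, beside 3.14% of all tested genes. For each of the 7 the difference of the responses passed the test. With library size only, UBE2C alone among these 7 was still higher in BxPC3. No member was lower in BxPC3 and higher in Panc327, where 1.2% of all tested genes were. Over the 46 members the log2 fold changes of BxPC3 and Panc327 were correlated with a Spearman rho of 0.711. Those of BxPC3 and SUIT2 had a rho of 0.281, and those of Panc327 and SUIT2 one of 0.242. These values describe genes measured in the same libraries, and no rho over all tested genes was calculated beside them. Between the response and the DMSO level rho was 0.197, 0.085 and -0.174 in BxPC3, Panc327 and SUIT2, and between the response and the genomic span of the gene it was -0.102, -0.0681 and 0.44.

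The responses themselves differed between the lines, with the Panc327 response the lowest for most members. The difference between BxPC3 and Panc327 was called positive for 37 members, where 22.2% of all tested genes were, and negative for 1, where 14.1% were. It was positive for all 6 kinetochore genes, all 6 kinesins and all 3 cytokinesis genes. The largest differences were in TTK (2.27 ± 0.15, edgeR adjusted p = 8.26e-23), AURKA (2.20 ± 0.11, edgeR adjusted p = 1.33e-32) and PLK1 (1.63 ± 0.08, edgeR adjusted p = 3.38e-33). The single negative difference was in CDC25B (-0.26 ± 0.08, edgeR adjusted p = 0.0087), and it was lost without Panc327 THZ1 library 1 (-0.19). The 8 members whose difference did not pass were CDC25C, BUB1B, MAD2L1, PTTG1, AURKB, HMMR, NCAPH and SMC2. Among these 8 the intervals of the difference were -0.16 to 0.20 for HMMR and -0.17 to 0.12 for SMC2, but -0.82 to 0.03 for the low-count CDC25C. Over all genes, 61.1% of the called differences were positive, and 50.8% with library size only or 49.6% with RLE size factors, under which 35 members stayed positive.

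**Figure D4:**
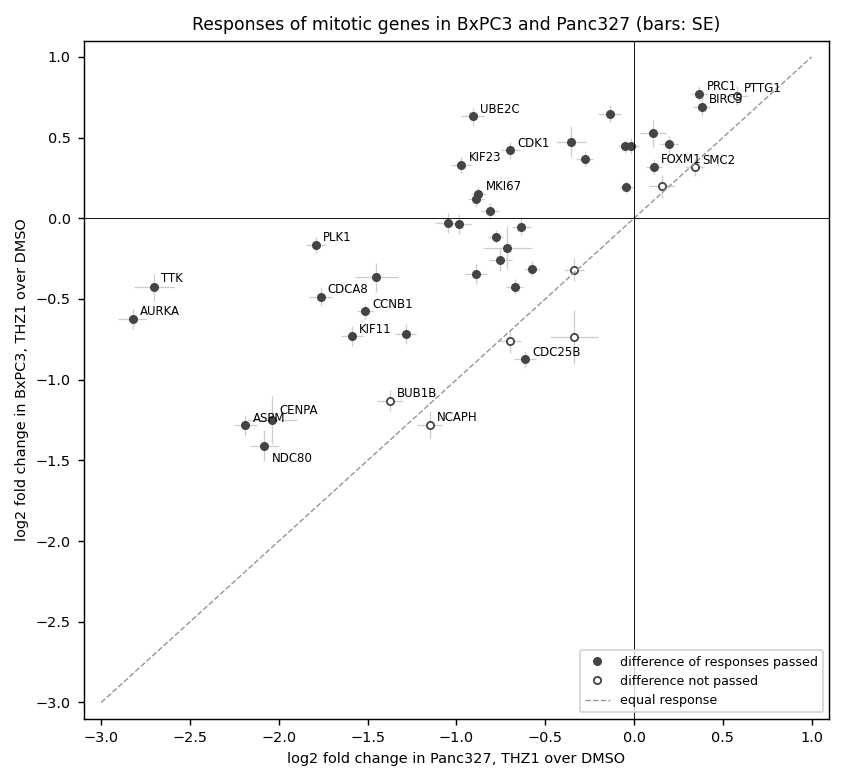
Log2 fold change with THZ1 over DMSO in Panc327 (horizontal axis) and BxPC3 (vertical axis) for the 46 mitotic genes. Bars are SE, filled points passed the test of the difference between the 2 responses, open points did not, and the dashed line marks equal responses. Most points lie above the line, farthest in TTK and AURKA, and those above 0 on the vertical axis and left of 0 on the horizontal axis depend on the scaling (with library size only, 2 members are higher in BxPC3 and lower in Panc327).

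Against SUIT2, the BxPC3 response was higher for 17 members and lower for 19, beside 27.3% and 27.6% of all genes. It was lowest relative to SUIT2 in NDC80 (-1.40 ± 0.13), ASPM (-1.22 ± 0.09) and BUB1B (-1.09 ± 0.09), and highest in BIRC5 (0.83 ± 0.08), UBE2C (0.83 ± 0.07) and PRC1 (0.77 ± 0.06). For these 6 the edgeR adjusted p ran from 2.28e-22 to 2.28e-16. The Panc327 response was lower than that of SUIT2 for 34 members and higher for 6, beside 32.4% and 28.3% of all genes. It lay farthest below in TTK (-2.69 ± 0.14), AURKA (-2.68 ± 0.10) and ASPM (-2.13 ± 0.09), and farthest above in PTTG1 (0.55 ± 0.08), BIRC5 (0.52 ± 0.07) and PRC1 (0.37 ± 0.07), with edgeR adjusted p from 4.53e-42 to 9.34e-07. With library size only, PRC1 stood at 0.06 in this difference and was not called. The share of positive differences over all genes was 22.8% in place of 49.7% for BxPC3 against SUIT2 under that scaling, and 28.1% in place of 46.7% for Panc327 against SUIT2. The 3 differences share libraries and are not independent of each other.

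In SUIT2 the 33 members that did not pass had log2 fold changes between -0.19 and 0.18, and their intervals ran from -0.37 at the lowest, for CENPA, to 0.34 at the highest, for KIF18A. The count of higher members was 3 without DMSO library 1, 2 without THZ1 library 1 and 0 without THZ1 library 2. Summed over the 46 members, SUIT2 held 8246 ± 115 CPM with THZ1 and 8563 ± 207 CPM with DMSO (SD, n = 3 each). The sum was 5820 ± 72.4 and 8657 ± 146 CPM in Panc327, and 7018 ± 55.4 and 6870 ± 105 CPM in BxPC3. As a share of all gene counts, without composition scaling, the members made up 0.572% with THZ1 and 0.737% with DMSO in BxPC3, 0.503% and 0.937% in Panc327, and 0.907% and 0.952% in SUIT2, so that the BxPC3 sum was above DMSO by one scaling and below it by the other.

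With DMSO alone, BxPC3 expressed most mitotic genes below the other lines. Of the 46, 33 members were lower in BxPC3 than in Panc327 and 8 were higher, beside 40.7% and 38.6% of all genes, and 29 were lower than in SUIT2 and 8 higher, beside 39.7% and 38.9%. Panc327 and SUIT2 were even, with 17 members higher and 17 lower in Panc327, beside 42.9% and 39.6%. NDC80 averaged 43.9 ± 3.22 CPM in BxPC3, 101 ± 2.8 CPM in Panc327 and 34.8 ± 0.643 CPM in SUIT2 (SD, n = 3 each). It was the member that set BxPC3 and Panc327 furthest apart (-1.21 ± 0.06), followed by CENPF (-1.16 ± 0.05) and HMMR (-1.07 ± 0.06). The members highest in BxPC3 relative to Panc327 were CDC25B (0.86 ± 0.05), PRC1 (0.50 ± 0.05) and UBE2C (0.47 ± 0.05). Relative to SUIT2, BxPC3 was lowest in the condensin subunit NCAPG (-1.28 ± 0.06), CDC25C (-1.24 ± 0.11) and SPC25 (-1.04 ± 0.10), and highest in CDC25B (0.63 ± 0.05), CDC20 (0.40 ± 0.04) and NDC80 (0.34 ± 0.08). Panc327 was lowest relative to SUIT2 in UBE2C (-0.93 ± 0.05), SPC25 (-0.83 ± 0.10) and AURKA (-0.80 ± 0.05), and highest in NDC80 (1.55 ± 0.07), ANLN (1.01 ± 0.04) and AURKB (0.97 ± 0.06). These are log2 differences with SE, and for all those named here the edgeR adjusted p was 4.75e-05 or lower.

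Levels of different genes were compared per kilobase of merged exon length (GENCODE 29). On that scale CDC20 was the highest member with DMSO in BxPC3, at 184 CPM per kb, and in Panc327, at 160.3 CPM per kb, and TPX2 was the highest in SUIT2, at 169.8 CPM per kb. The lowest were CDC25C in BxPC3 (2.95 CPM per kb) and Panc327 (4.21 CPM per kb), and KIF18A in SUIT2 (6.95 CPM per kb), where CDC25C lay beside it.

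**Figure D5:**
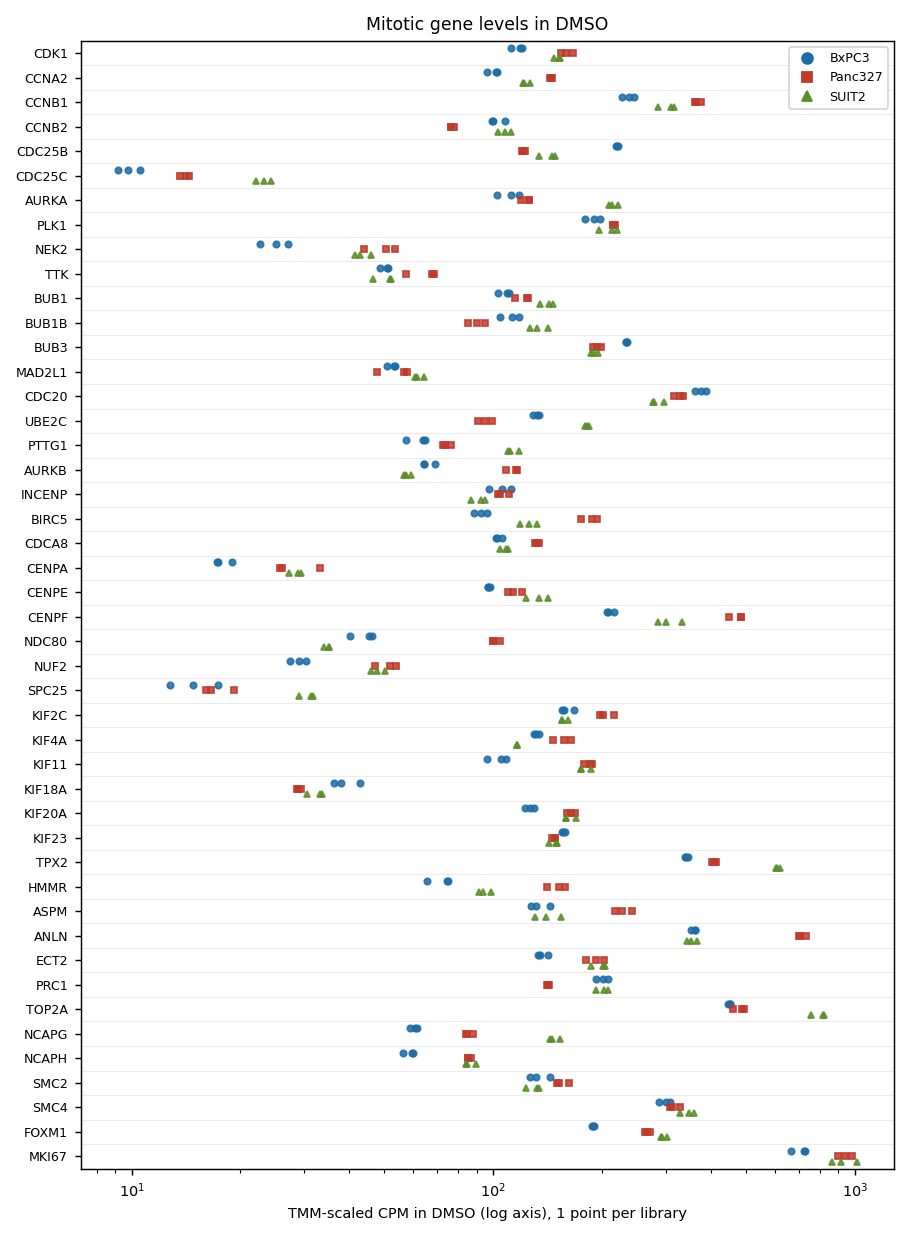
TMM-scaled CPM with DMSO (horizontal axis, log scale) of the 46 mitotic genes (vertical axis), 1 point per library, in BxPC3 (circles), Panc327 (squares) and SUIT2 (triangles). The 3 libraries of a line sit close together, and for NDC80 Panc327 holds 99.9 to 105 CPM, above 40.2 to 46.1 CPM in BxPC3 and 34.0 to 35.2 CPM in SUIT2.

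Genes of the same pathway outside the 46 were counted in 6 further lists. Each count stands beside the shares over all tested genes. Those were 35.2% higher and 34.1% lower in BxPC3, 35.6% and 37.8% in Panc327, and 6.95% and 7.64% in SUIT2. With library size only they were 18.6% and 50.7% in BxPC3 and 22.6% and 50.3% in Panc327. Of 58 further mitotic genes, all tested, 17 higher and 32 lower were called in BxPC3 (median -0.21), 10 higher and 43 lower in Panc327 (median -0.82) and 3 higher and 9 lower in SUIT2 (median -0.05). In Panc327 the largest falls were in CCNF, an F-box protein of G2 phase (-3.28 ± 0.10; 9.37 CPM with THZ1 and 90.8 CPM with DMSO), HJURP, the chaperone that loads CENPA (-2.87 ± 0.09), and the kinesin KIF18B (-2.53 ± 0.10). KNSTRN, a spindle and kinetochore protein, fell most in BxPC3 (-2.20 ± 0.10) and also in SUIT2 (-0.38 ± 0.06). CKS1B, a small subunit of CDK complexes, and the kinase PBK were higher in both BxPC3 (0.86 ± 0.05 and 0.87 ± 0.07) and Panc327 (0.80 ± 0.05 and 0.78 ± 0.07), also with library size only. With library size only the counts over this list were 4 higher and 47 lower in BxPC3 and 4 higher and 49 lower in Panc327.

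Subunits of the anaphase-promoting complex, 15 in all, held 6 higher and 6 lower in BxPC3, beside 35.2% and 34.1% of all tested genes. Panc327 held 5 higher and 7 lower, beside 35.6% and 37.8%. With library size only the counts were 4 higher and 9 lower in BxPC3 and 4 higher and 10 lower in Panc327. FZR1, the CDH1 activator of the complex, fell in both (-0.89 ± 0.08 and -1.16 ± 0.08), and ANAPC11, its RING subunit, was higher in both (0.93 ± 0.07 and 1.01 ± 0.06). Of 12 genes of cohesin and its regulators, 2 higher and 7 lower were called in BxPC3 and 3 higher and 8 lower in Panc327. Lower in both were the loader subunit MAU2 (-2.13 ± 0.09 and -1.92 ± 0.10) and the release factor WAPL (-1.29 ± 0.07 and -1.86 ± 0.07). PDS5B fell in BxPC3 (-1.31 ± 0.08), about as much as WAPL. RAD21 was higher in both (0.63 ± 0.04 and 0.21 ± 0.04), but in Panc327 it was at -0.11 with library size only. The cohesin counts were 1 higher and 11 lower in BxPC3 and 0 higher and 11 lower in Panc327 with library size only. None of the 12 passed in SUIT2. Of 22 MuvB, MYB, E2F and pocket protein genes, 4 higher and 13 lower were called in BxPC3 and 6 higher and 14 lower in Panc327, and 1 higher and 18 lower and 3 higher and 16 lower with library size only. The repressor E2F8 (-2.35 ± 0.16 and -3.41 ± 0.19) and the activator E2F1 (-1.87 ± 0.09 and -2.02 ± 0.10) fell in both lines. MYBL2, which encodes B-MYB, was higher in both (0.56 ± 0.05 and 0.57 ± 0.05). E2F8 was low with THZ1, at 4.35 CPM in BxPC3 and 2.19 CPM in Panc327, beside 22.1 and 23.2 CPM with DMSO. Its THZ1 levels thus rest on few reads.

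The 45 DNA replication genes were closer to the bulk. In BxPC3, 17 were higher and 21 lower (median -0.09), beside 35.2% and 34.1% of all tested genes. Panc327 held 17 higher and 24 lower (median -0.19), beside 35.6% and 37.8%. GINS1, of the replicative helicase, fell in both (-2.70 ± 0.09 and -2.00 ± 0.09), and TYMS, which makes thymidylate, was higher in both (0.91 ± 0.07 and 1.06 ± 0.05). Of 13 G1 cyclins, kinases and inhibitors 11 were tested, with 3 higher and 1 lower in BxPC3 and 4 higher and 4 lower in Panc327. CCND1 was lower in both (-0.57 ± 0.04 and -0.27 ± 0.04), and CDKN1B was lower in Panc327 (-0.88 ± 0.08). CDKN2D was higher in BxPC3 (2.13 ± 0.20), at 13.6 CPM with THZ1 and 3.11 CPM with DMSO. CDK4 was higher in both (0.48 ± 0.04 and 0.69 ± 0.05). In BxPC3, though, CDK4 was at 0.09 and not called with library size only. With that scaling the replication genes stood at 6 higher and 30 lower in BxPC3 and 11 higher and 30 lower in Panc327. The G1 genes then stood at 2 higher and 6 lower in BxPC3 and 4 higher and 6 lower in Panc327. The counts in these lists thus depend on the scaling.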

How the data were processed

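For each of 18 libraries the authors deposited unnormalised read counts by gene symbol. The submitters' processing notes name HTSeq 0.6.1, TopHat2 2.1.0, bcl2fastq 1.8.4 and the build hg38. Libraries were made with the TruSeq RNA v2 kit, per the labels; the kit does not keep strand. No source used here gives the gene annotation, the strand setting or how overlaps were counted. The counter's summary entries entered neither library totals nor tests, and made up 21.3% to 64.6% of the records of a file.

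Counts were analysed with edgeR 4.0.16 in R 4.3.3. filterByExpr (minimum count 10, minimum total 15) kept 14011 of 26485 genes. After TMM scaling, 6 group means were fitted by robust quasi-likelihood (12 residual degrees of freedom), and a Benjamini-Hochberg adjusted p under 0.05 over all genes tested made a call. The 9 contrasts were THZ1 against DMSO in each line, the differences of these, and the lines with DMSO. Each SE was obtained from the fold change and its F value, as |log2 fold change| over the root of F, and intervals are 1.96 SE on each side. Positions are from GENCODE 29 on GRCh38.

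Per-library values are given for CDK1, CCNB1, PLK1, AURKA, TTK, BUB3, CENPA, KIF20A, TOP2A, FOXM1 and MKI67 and for the 3 largest falls and rises per THZ1 contrast among called members with at least 10 CPM in a group. For the other contrasts the 3 largest per direction are named, up to 4 members per role group, and up to 3 genes per direction of other lists. The rule for the members names genes by function and uses no measured value, but it and the lists were proposed with earlier results of these data known. Replicate pairs of a group differed by more than counting noise (chi-square per degree of freedom 1.251 to 2.525 over 18 pairs), so none was a duplicate. Alternatives were DESeq2 1.42.0, voom in limma 3.58.1, RLE scaling, scaling by library size alone, testing without the filter, fits of the compared lines by themselves, a block for replicate number, and leaving out each library. For genes of the other lists they were added after the data were seen. The fit was tested on simulated data in which few genes changed, in random directions, so the scaling was not tested there.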

Additional observations from a re-analysis of the deposited data

Results flagged for a closer look

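The THZ1 responses of the lines differed by the test of the difference itself. Between BxPC3 and Panc327, 37 members had a higher response in BxPC3 and 1 a lower one, beside 22.2% and 14.1% of all tested genes. The named differences of log2 fold changes were 2.27 for TTK, 2.20 for AURKA, 1.63 for PLK1 and -0.26 for CDC25B. Between BxPC3 and SUIT2, 17 were higher and 19 lower in BxPC3, beside 27.3% and 27.6% of all tested genes. The named values were 0.83 for BIRC5, 0.83 for UBE2C, 0.77 for PRC1, -1.40 for NDC80, -1.22 for ASPM and -1.09 for BUB1B. Between Panc327 and SUIT2, 6 were higher and 34 lower in Panc327, beside 28.3% and 32.4% of all tested genes. The named values were 0.55 for PTTG1, 0.52 for BIRC5, 0.37 for PRC1, -2.69 for TTK, -2.68 for AURKA and -2.13 for ASPM.

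Multiply aligned records, which are not part of the gene counts, took 22.8% of all records of the count files in BxPC3 with THZ1 and 12.8% with DMSO, and 52.8% in Panc327 with THZ1 and 13.6% with DMSO. The share was thus above that of the control libraries in both lines, and its part in the member responses was not tested.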

How the results depend on the processing

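With library size only, members higher were 5 in BxPC3 (19 with TMM), 1 in Panc327 (7), 7 for BxPC3 against SUIT2 (17) with 30 lower (19), 2 for Panc327 against SUIT2 (6), 1 in both BxPC3 and Panc327 (7), and 2 higher in BxPC3 and lower in Panc327 (7). With only the lines compared, 2 responses were lower in BxPC3 than in Panc327 (1). Log2 fold changes turned with library size only in BxPC3 for BUB3 (-0.0257), MAD2L1 (-0.20), CENPF (-0.28), KIF2C (-0.35), KIF23 (-0.0664), ANLN (-0.20), SMC2 (-0.0801), FOXM1 (-0.0773), MKI67 (-0.25) and STAG2 (-0.29), and in Panc327 for MAD2L1 (-0.17), NUF2 (-0.22), KIF4A (-0.13), FOXM1 (-0.22), RAD21 (-0.11) and STAG2 (-0.20). ANLN in Panc327 turned to 0.0727 with DESeq2. The cause was not tested.

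Leaving out 1 library at a time gave 18 to 19 higher and 22 to 23 lower members in BxPC3, 5 to 6 and 34 to 34 in Panc327, and 0 to 3 and 9 to 12 in SUIT2. The differences gave 36 to 38 and 0 to 1 for BxPC3 against Panc327 (0 without Panc327 THZ1 library 1), 15 to 17 and 18 to 20 for BxPC3 against SUIT2, and 5 to 6 and 34 to 35 for Panc327 against SUIT2. With DMSO the counts were 8 to 8 and 32 to 35, 8 to 8 and 29 to 30, and 16 to 17 and 16 to 18 in the same order. Members lower in all lines numbered 7 to 10, lower in BxPC3 and Panc327 21 to 23, higher in both 5 to 7, and higher in BxPC3 and lower in Panc327 6 to 8. Same-numbered libraries correlated at -0.111 to 0.0441 over 9 pairs, and pairs with different numbers at -0.044 to 0.0952. These are deviations from group means of 3 libraries, so they cannot show whether a number marks a shared culture or day. With the replicate block, 6 members were higher in Panc327 and 16 for BxPC3 against SUIT2. MAD2L1 in Panc327 (0.16, edgeR adjusted p = 0.0530) was then no longer called. At this depth the intervals of members not called in SUIT2 reached -0.37 (CENPA) and 0.34 (KIF18A).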
